A study of Homo sapiens with 4 samples.

Results

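Interferon-stimulated genes were followed in HepG2, a line of human hepatocellular carcinoma cells, after treatment with Sorafenib, a multikinase inhibitor used against hepatocellular carcinoma. The set was taken from a list of 43 symbols, matched by symbol to the deposited gene counts. *RIGI* and *DDX58* name the same gene, so the list holds 42 genes, and all 42 were among the 28278 gene symbols of the table. The study asked how gene expression differed between Sorafenib-treated control cells and cells in which *USP22*, a deubiquitinase of the SAGA coactivator complex, had been targeted. Control cells carried Cas9 with a control sgRNA and the other cells Cas9 with a *USP22* sgRNA, both delivered by lentivirus, and both groups received 10 µM Sorafenib for 24 h. There were 2 polyA RNA libraries per group, and no library without Sorafenib, without Cas9 or with added interferon was analysed here. A single *USP22* sgRNA is described. The infected cells are described as stable populations. Whether the 2 libraries of a group came from separate cultures is not given in the sources used here, so the p-values measure the spread between these libraries, which may be technical.

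Cells sense foreign or misplaced nucleic acid with receptors such as RIG-I and MDA5, which induce interferons. Secreted interferon then acts through its receptor, the kinases JAK1 and TYK2 and the ISGF3 complex, which contains STAT2 and IRF9 and binds the interferon-stimulated response element (ISRE) in the promoters of its target genes. The products of these genes sense, degrade or block the translation of viral RNA, hinder viral entry and release, and feed back on the pathway itself, and many of them have a low constant level in cells that were given no interferon.

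The libraries held between 62030307 and 64728272 counts. Levels are given as CPM, counts scaled to the size of the library. Where a gene was at 0, up to 3 counts are allowed by counting error, which is 0.0457 to 0.0492 CPM in these libraries. The libraries labelled sgUSP22 did not hold less *USP22* transcript, with 16450 and 16537 counts in the control and 20279 and 20368 counts in the sgUSP22 libraries (log2 fold change 0.22, standard error 0.034, adjusted p = 0.000394, edgeR), so every direction below follows the label. The paper checked its knockout by Western blot, which measures protein, and these counts measure RNA alone. The liver identity given by the labels was not seen in most defining genes: 21 of 24 hepatocyte markers were under 20 counts in every library, and *ALB* and *APOA1* were at 0 in all 4. The others were *CPS1*, *CEBPA* and *ASGR1*. *CPS1* had 61965 and 60849 counts in the control and 87325 and 83918 in the sgUSP22 libraries. *CEBPA* had 388 and 336 and then 510 and 449 counts, and *ASGR1* had 197 and 188 and then 125 and 106. The 24 summed to 1026 and 984.4 CPM in control and 1340 and 1309 CPM in sgUSP22 libraries, nearly all from *CPS1*. Among other cell types, 4 of 7 immune cell markers, including *CD3E*, were at 0 in all libraries, *PTPRC* had at most 4 counts, and the summed level of the 7 was 73.84 and 74.06 CPM in control and 47.01 and 44.12 CPM in sgUSP22 libraries, nearly all from *CD68*. The 5 endothelial markers were each under 20 counts in every library. The 6 fibroblast markers summed to 636.5 and 631.8 CPM in control and 894.8 and 897.3 CPM in sgUSP22 libraries, with *PDGFRA* at 0 throughout. Most of this sum came from *COL3A1*, with 30410 and 31662 and then 37872 and 36728 counts. *DCN* had 624 and 585 counts in the control and 5191 and 4996 in the sgUSP22 libraries (adjusted p = 1.56e-09, edgeR). *LUM* had 4283 and 3743 and then 11988 and 12071 counts (adjusted p = 1.24e-07, edgeR). Of the 4 fibroblast markers tested, 3 were higher and 0 lower at an adjusted p below 0.05, beside 26.8% and 25.8% of all tested genes. The part of these marker differences in the results that follow was not tested.

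ISRE cores stood in the promoters of many of these genes, and the stretches that hold them are shown for the members whose results are described most fully below. The 250 bases before the transcription start of each gene (RefSeq, GRCh38.p14) were searched on both strands for the ISRE core, GAAA followed by any 2 bases and again GAAA, and for the interferon gamma activated sequence (GAS), TTC followed by any 3 bases and GAA. Matches of the 2 motifs may overlap in part. A promoter entry was matched for 34 of the 42 genes, and not for *IFIT2*, *OAS2*, *OASL*, *IRF7*, *USP18*, *IFITM2*, *MX2* and *TRIM22*. The ISRE core was found in 23 of the 34 (67.6%), against 3.71% of the 27305 genes and 3.02% of the 35116 promoters of the same length in the table. GAS was found in 10 of the 34 (29.4%), against 8.09% of all genes and 6.57% of all promoters. Each stretch is written 5′ to 3′ on the strand of its gene, with the core, or its reverse complement, in capitals. Those of *IFIT5*, *DDX60*, *OAS3*, *IFITM1*, *GBP1*, *RSAD2* and *IFI44L* also overlap an annotated GENCODE exon, counting exons of any gene on either strand. All of these but that of *IFIT5* lie within the annotated span of their own gene. That of *IFIT5* lies before its gene and overlaps the end of the minus-strand gene *LIPA*. The stretches at chr10:89392495-89392541 and chr10:89414539-89414567 (plus strand) lie before *IFIT1* and *IFIT5*. That of *IFIT3*, at chr10:89327829-89327896 (plus strand), lies before a start site of the gene but within its annotated span, outside annotated exons. The stretches of *IFIT1* and *IFIT3* each show the core at 2 places and that of *IFIT5* at 1, and the searched windows hold 2 matches for *IFIT1*, 4 summed over both start sites of *IFIT3*, whose windows may share bases, and 2 for *IFIT5*.
*IFIT1*: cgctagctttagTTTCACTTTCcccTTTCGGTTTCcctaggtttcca
*IFIT3*: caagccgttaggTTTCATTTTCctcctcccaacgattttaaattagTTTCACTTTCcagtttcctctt
*IFIT5*: ttacgtttagTTTCGATTTCttaagtttc

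The second set comes from genes that were higher in the sgUSP22 libraries, *RSAD2* at chr2:6877622-6877651 (plus strand), *GBP1* at chr1:89065316-89065345 (minus strand) and *DDX60* at chr4:168318786-168318815 (minus strand). The core of *RSAD2* and that of *GBP1* read the same 10 letters.
*RSAD2*: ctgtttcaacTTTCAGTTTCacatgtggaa
*GBP1*: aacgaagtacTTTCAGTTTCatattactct
*DDX60*: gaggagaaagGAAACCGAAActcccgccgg

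The last set comes from genes that were lower: *IFI6* at chr1:27672264-27672319 (minus strand), *IFI27* at chr14:94110616-94110662 (plus strand), *IFI44L* at chr1:78620365-78620394 (plus strand), *OAS3* at chr12:112938452-112938473 (plus strand) and *IFITM1* at chr11:313990-314019 (plus strand). The stretches of *IFI6* and *IFI27* show the core at 2 places each, and their searched windows hold 3 matches for *IFI6* and 4 summed in the same way for *IFI27*. Like that of *IFIT3*, the stretch of *IFI27* lies within the annotated span of its gene, outside annotated exons.
*IFI6*: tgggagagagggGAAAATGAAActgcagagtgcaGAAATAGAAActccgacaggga
*IFI27*: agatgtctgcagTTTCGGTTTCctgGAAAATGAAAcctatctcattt
*IFI44L*: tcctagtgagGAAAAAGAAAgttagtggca
*OAS3*: agccgggcggGAAAACGAAAcc
*IFITM1*: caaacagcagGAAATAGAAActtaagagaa

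Genes with the core thus moved in both directions. Among genes with a promoter entry, the core stood in 9 of 11 that were higher at an adjusted p below 0.05 and in 9 of 17 that were lower, while GAS stood in 1 of the 11 and 7 of the 17. Of 6 genes that did not pass, 5 held the core and 2 held GAS. Among genes that also differed by at least 1.5-fold, the core stood in 3 of 4 higher and 5 of 7 lower genes. GAS stood in 1 of these 4 and 4 of these 7. The core was not found for *DDX58*, which was higher, or for *OAS1* and *IRF9*, which were lower. A link between either motif and direction was not tested. A match is a string of letters in this window and not a shown binding site.

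Interferon-stimulated genes did not move as a block. A gene counts as called here if the groups differed by at least 1.5-fold and edgeR's quasi-likelihood test gave a p below 0.05 once adjusted, by the Benjamini-Hochberg method, over the 15150 genes that passed the filter on low counts. By this rule *RSAD2*, *GBP1*, *DDX60* and *DDX58* were higher in the sgUSP22 libraries, and *IRF7*, *IRF9*, *IFI44L*, *IFI6*, *IFI27*, *IFITM1*, *OAS1* and *OAS3* were lower. All 42 genes passed the filter, *GBP1* only through the sgUSP22 libraries, so that it had to differ to be tested. The 4 called higher made 9.52% of the 42, against 8.88% of all tested genes, and the 8 called lower made 19.0%, against 7.25% of all tested genes. At the adjusted p alone, 13 genes (31.0%) were higher and 20 (47.6%) lower, where the shares of all tested genes were 26.8% and 25.8%. The 2 groups did not overlap for 15 genes that were higher and 22 that were lower, beside 38.3% and 37.6% of all tested genes. The median log2 fold change was -0.17 over the 42 genes and 0.0009 over all tested genes. In bulk RNA, fewer cells expressing a gene and less of its RNA per cell cannot be told apart.

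**Figure D1:**
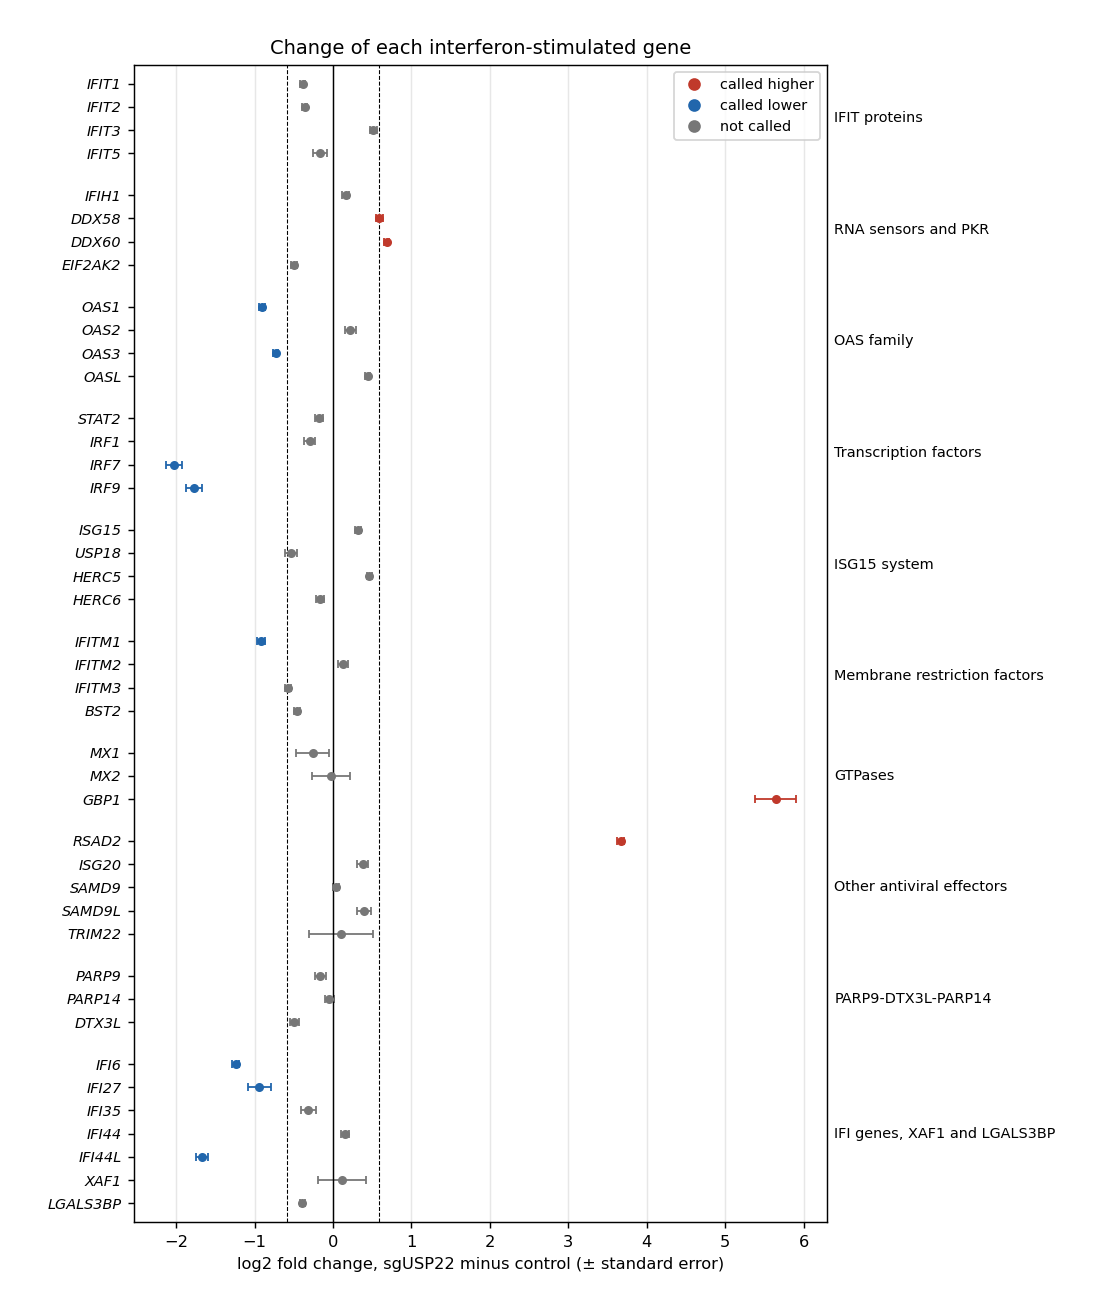
Log2 fold change of each of the 42 interferon-stimulated genes in sgUSP22 against control libraries (horizontal axis), grouped by role, with bars of 1 standard error from edgeR and dashed lines at 1.5-fold. Red and blue points were called higher and lower, grey points were not called. Points run from -2.03 for *IRF7* to 5.64 for *GBP1*, and most lie between the dashed lines.

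The genes were well covered, with at least 1000 counts in every library for 33 of the 42. Their summed level was 6600 and 6494 CPM in the control and 6543 and 6436 CPM in the sgUSP22 libraries, ranges that overlap. Within this sum, the 4 genes called higher went from 299.6 and 292.2 CPM to 702.4 and 701.4 CPM, and the 8 called lower from 1018.5 and 1024.2 CPM to 537.8 and 530.8 CPM. These 2 sums describe genes picked by their calls and carry no test.

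**Figure D2:**
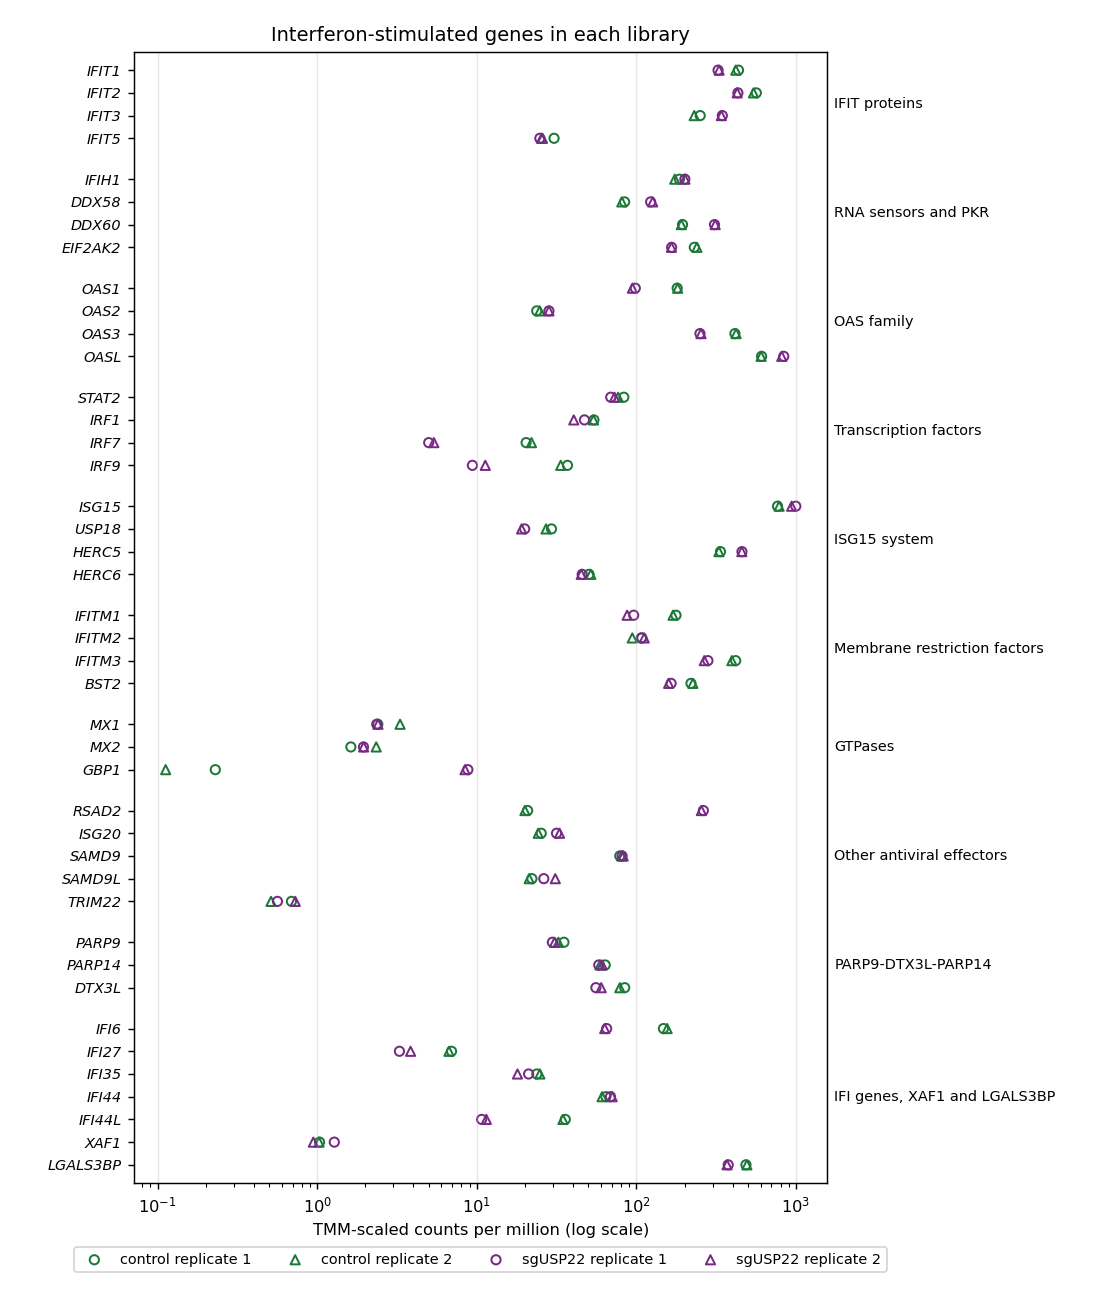
Level of each interferon-stimulated gene in the 4 libraries, in CPM on a log axis, in green for control and purple for sgUSP22, with circles for replicate 1 and triangles for replicate 2. Replicates of a group lie close together for most genes, and *RSAD2* and *GBP1* show the widest gaps between the groups.

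*RSAD2* and *GBP1* stood apart from all other members. *RSAD2* (viperin, a radical SAM enzyme that makes a chain-terminating nucleotide; chr2:6865557-6898239, plus strand) had 1268 and 1248 counts in the control and 17248 and 16471 counts in the sgUSP22 libraries. Its level went from 20.4 ± 0.559 to 259 ± 5.18 CPM (SD, n = 2), a 12.7-fold difference (log2 fold change 3.67, standard error 0.045, adjusted p = 2.53e-11, edgeR). *GBP1*, a guanylate-binding GTPase best known as a target of interferon gamma (chr1:89051882-89065360, minus strand), had 14 and 7 counts in the control and 577 and 544 counts in the sgUSP22 libraries. It was nearly absent from the control libraries and present in both sgUSP22 libraries (log2 fold change 5.64, standard error 0.26, adjusted p = 1.99e-07, edgeR). Because *GBP1* had to differ to be tested, this p-value and its rank below describe the difference and are not used as support. The size of this difference rests on few control counts, and the log2 fold change was 6.24 without control replicate 1 and 5.22 without control replicate 2. Among all 15150 tested genes, *GBP1* ranked 38th and *RSAD2* 58th by log2 fold change from the top.

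**Figure D3:**
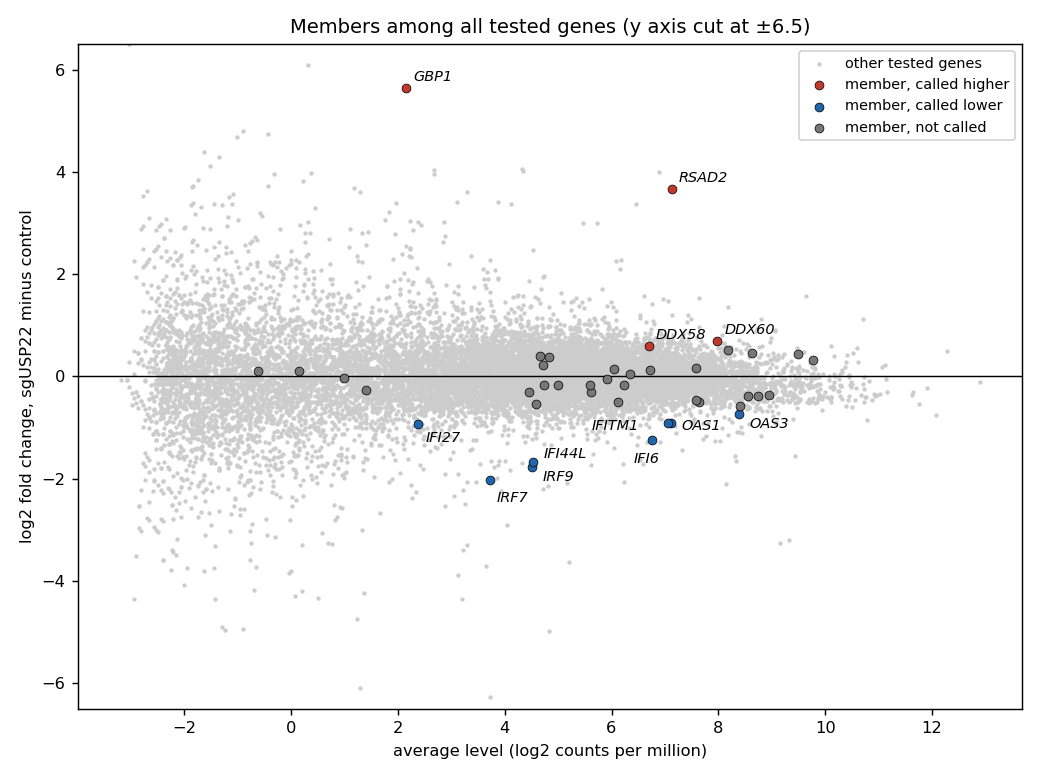
Log2 fold change (vertical axis) against the average level in log2 CPM (horizontal axis) for all tested genes (small grey points, a few beyond the vertical range not shown) and the 42 interferon-stimulated genes (large points, red called higher, blue called lower, dark grey not called). *RSAD2* and *GBP1* lie far above the band of most genes, and the genes called lower lie inside the range of many other genes.

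Of the genes of the RIG-I-like sensors, *DDX60* and PKR, 3 were higher and 1 was lower at the adjusted p. The shares of all tested genes were 26.8% and 25.8%. *DDX60*, a helicase linked to RIG-I signalling (chr4:168216291-168318883, minus strand), had 11848 and 11920 counts in the control and 20263 and 20103 in the sgUSP22 libraries (log2 fold change 0.69, standard error 0.034, adjusted p = 3.14e-07, edgeR). *DDX58*, which encodes the sensor RIG-I (chr9:32455302-32526208, minus strand), had 5137 and 5051 counts in the control and 8064 and 8157 in the sgUSP22 libraries (log2 fold change 0.59, standard error 0.042, adjusted p = 2.5e-06, edgeR). This lies just inside the 1.5-fold limit, at 1.51-fold, and *DDX58* was no longer called without control replicate 2 (0.56 on the log2 scale) or without sgUSP22 replicate 2 (0.57). With offsets for GC content and transcript length, neither *DDX58* (0.43) nor *DDX60* (0.46) reached 1.5-fold. *IFIH1* (MDA5, the sensor of long double-stranded RNA) rose from 11341 and 10843 to 13207 and 12990 counts (log2 fold change 0.16, adjusted p = 0.00813, edgeR), a small difference that did not pass without control replicate 2 (0.11, adjusted p = 0.0639, edgeR). *EIF2AK2*, which encodes PKR, the RNA-activated kinase that stops translation, went the other way, from 14045 and 14919 to 10913 and 10694 counts (log2 fold change -0.50, standard error 0.037, adjusted p = 3.12e-06, edgeR).

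The 4 *IFIT* genes, which encode RNA-binding proteins with tetratricopeptide repeats, lie side by side on the plus strand of the long arm of chromosome 10 (hg38) and did not move together. *IFIT3* (chr10:89327307-89377473, plus strand) had 15291 and 14353 counts in the control and 22674 and 21971 in the sgUSP22 libraries (log2 fold change 0.51, standard error 0.044, adjusted p = 8.56e-06, edgeR). *IFIT2* (chr10:89283694-89309271, plus strand) had 34365 and 33784 and then 28391 and 27620 counts (log2 fold change -0.36, standard error 0.034, adjusted p = 1.5e-05, edgeR). *IFIT1* (chr10:89392546-89406487, plus strand), whose product binds RNA that lacks the methylation of host caps, had 26577 and 26160 and then 21327 and 21268 counts (log2 fold change -0.39, standard error 0.035, adjusted p = 1.16e-05, edgeR). So *IFIT3*, which lies between *IFIT2* and *IFIT1*, was higher while both neighbours were lower, and none of the 3 reached 1.5-fold. *IFIT5* (chr10:89414568-89421605, plus strand) had 1857 and 1608 counts in the control and 1630 and 1641 counts in the sgUSP22 libraries and did not pass the test (log2 fold change -0.16, standard error 0.088, adjusted p = 0.15, edgeR). Its value rested on single libraries and settings: it was -0.038 without control replicate 1, and it passed without control replicate 2 (-0.28, adjusted p = 0.0192, edgeR) and with GC and length offsets (-0.34, adjusted p = 0.0082, edgeR). The ratio of *IFIT1* to *IFIT3* counts was 1.74 and 1.82 in the control and 0.941 and 0.968 in the sgUSP22 libraries, whereas that of *IFIT1* to *IFIT2* counts was 0.773 and 0.774 in the control and 0.751 and 0.77 in the sgUSP22 libraries.

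Most genes of this chromosome arm were lower in the sgUSP22 libraries. Of the 434 tested genes that start beyond 40 Mb on chromosome 10, 61.5% were lower and 6.45% higher at the adjusted p, 29.5% were called lower and 4.38% higher, and their median log2 fold change was -0.40. *IFIT1* and *IFIT2* sat near that median, with 52.5% and 54.8% of the 434 genes at or below them. *IFIT3* sat near the top of the arm, with 92.9% of the genes at or below it, and *IFIT5* had 71.0%. Of 6 other tested genes within 1 Mb of the 4 *IFIT* genes, the log2 fold change was negative for 5 and positive for 1, with a median of -0.27. The positive one, that of the death receptor gene *FAS*, came from 964 and 912 counts in the control and 1952 and 1815 counts in the sgUSP22 libraries (log2 fold change 0.93, standard error 0.082, adjusted p = 1.09e-05, edgeR). *IFIT1*, *IFIT2* and *IFIT3* lie within the span of *LIPA* on the minus strand (8682 and 9157 counts in the control and 7420 and 6727 in the sgUSP22 libraries), and as the strand setting of the counting is not given in the sources used here, reads of overlapping stretches cannot be assigned with certainty. The part of the arm-wide difference in the *IFIT* values was not tested.

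**Figure D4:**
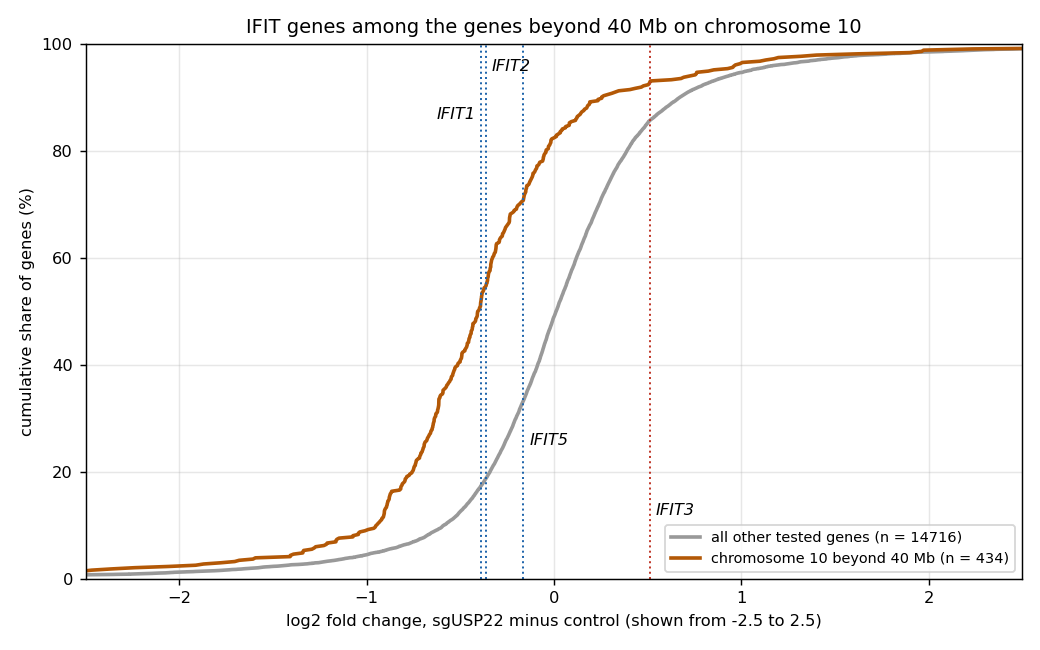
Cumulative share of genes in % (vertical axis) at or below each log2 fold change in sgUSP22 against control libraries (horizontal axis, its far ends not shown), for the 434 tested genes that start beyond 40 Mb on chromosome 10 (orange) and all other tested genes (grey), with a dotted line at each *IFIT* gene. The orange curve lies to the left of the grey one over most of the range, *IFIT1* and *IFIT2* meet it near its middle, and *IFIT3* meets it at 92.9%.

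The oligoadenylate synthetase family, which senses double-stranded RNA, held 2 genes called lower, neighbours on chromosome 12. *OAS1* (chr12:112905856-112933219, plus strand) had 10976 and 11301 counts in the control and 6462 and 6088 in the sgUSP22 libraries, a 1.87-fold decrease (log2 fold change -0.91, standard error 0.039, adjusted p = 1.35e-07, edgeR). *OAS3* (chr12:112938051-112976460, plus strand) had 25240 and 26262 and then 16427 and 16384 counts, a 1.66-fold decrease (log2 fold change -0.73, standard error 0.033, adjusted p = 1.99e-07, edgeR). *OAS2*, next to *OAS3*, went from 1446 and 1545 to 1859 and 1826 counts and was not lower (log2 fold change 0.22, adjusted p = 0.0229, edgeR). This small difference did not pass with DESeq2 (adjusted p = 0.0613), with GC and length offsets (0.15), or without control replicate 1, sgUSP22 replicate 1 or sgUSP22 replicate 2 (0.19 to 0.22). The ratio of *OAS3* to *OAS2* counts therefore went from 17.5 and 17.0 in the control to 8.84 and 8.97 in the sgUSP22 libraries. *OASL*, a family member without synthetase activity that enhances RIG-I signalling, was among the 3 most abundant of the 42 genes by CPM, which takes no account of length. It had 37073 and 37700 counts in the control and 55004 and 52535 in the sgUSP22 libraries (log2 fold change 0.45, standard error 0.031, adjusted p = 2.37e-06, edgeR).

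Of the 4 transcription factor genes, 2 were called lower, and the other 2 were lower at the adjusted p by small margins. Among all tested genes, 7.25% were called lower and 25.8% were lower at the adjusted p. *IRF7*, which encodes the factor that amplifies type I interferon induction (chr11:612553-615983, minus strand), had 1241 and 1372 counts in the control and 328 and 347 in the sgUSP22 libraries. This 4.08-fold decrease was the largest of the 42 genes (log2 fold change -2.03, standard error 0.10, adjusted p = 3.6e-07, edgeR), and *IRF7* ranked 188th of the tested genes from the bottom. *IRF9*, which encodes the DNA-binding subunit of ISGF3 (chr14:24161234-24168043, plus strand), had 2254 and 2092 counts in the control and 616 and 729 counts in the sgUSP22 libraries, a 3.41-fold decrease (log2 fold change -1.77, standard error 0.10, adjusted p = 8.27e-07, edgeR). *STAT2*, its partner in ISGF3, had 5081 and 4788 counts in the control and 4532 and 4702 in the sgUSP22 libraries (log2 fold change -0.17, adjusted p = 0.019, edgeR), and did not pass with library size alone (-0.12), with no filter (-0.17), without control replicate 1 (-0.12) or without sgUSP22 replicate 1 (-0.15). *IRF1*, a factor induced chiefly by interferon gamma, had 3300 and 3355 and then 3103 and 2613 counts (log2 fold change -0.30, adjusted p = 0.00529, edgeR), and did not pass without sgUSP22 replicate 2 (-0.19, adjusted p = 0.0537, edgeR).

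In the ISG15 system, 2 genes were higher and 2 lower at the adjusted p. *ISG15*, a ubiquitin-like modifier and the most abundant of the 42 transcripts by CPM and per length, had 46690 and 48867 counts in the control and 65481 and 60553 in the sgUSP22 libraries (log2 fold change 0.32, standard error 0.036, adjusted p = 4.92e-05, edgeR). *HERC5*, the main ISG15 ligase, was higher, from 20490 and 20509 to 30111 and 29512 counts (log2 fold change 0.46, standard error 0.033, adjusted p = 2.54e-06, edgeR). The related *HERC6*, its neighbour on chromosome 4, was slightly lower, from 3076 and 3228 to 3003 and 2910 counts (log2 fold change -0.17, adjusted p = 0.0168, edgeR), but did not pass with DESeq2 (adjusted p = 0.0588), with library size alone (-0.12), or without control replicate 2, sgUSP22 replicate 1 or sgUSP22 replicate 2 (-0.19 to -0.15). *USP18*, which removes ISG15 and dampens signalling from the interferon receptor, was lower, from 1789 and 1693 to 1310 and 1231 counts (log2 fold change -0.53, standard error 0.078, adjusted p = 0.000299, edgeR). None of the 4 reached 1.5-fold, though *USP18* did without control replicate 2 (-0.59). Of the other genes of ISG15 conjugation, *UBA7*, which encodes the activating enzyme, had 150 and 217 counts in the control and 186 and 137 in the sgUSP22 libraries, and *UBE2L6*, which encodes the conjugating enzyme, had 698 and 759 and then 749 and 804 counts, and neither passed the test.

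At the adjusted p, 3 of 4 genes of membrane-associated restriction factors were lower, beside 25.8% of all tested genes. *IFITM1*, which hinders fusion of viral and cell membranes (chr11:310041-315272, plus strand), had 10785 and 10577 counts in the control and 6313 and 5642 in the sgUSP22 libraries, a 1.89-fold decrease (log2 fold change -0.92, standard error 0.05, adjusted p = 5.68e-07, edgeR). *IFITM3*, which acts at endosomes, had 25511 and 24708 and then 18423 and 17178 counts and fell just short of 1.5-fold (log2 fold change -0.58, adjusted p = 2.61e-06, edgeR). *IFITM3* reached 1.5-fold without control replicate 2 (-0.61) and without sgUSP22 replicate 1 (-0.63). *IFITM2*, on the other side of *IFITM1*, had 6536 and 5874 and then 7108 and 7220 counts and did not pass the test (log2 fold change 0.13, adjusted p = 0.0907, edgeR). It did pass without control replicate 1 (0.22, adjusted p = 0.00379, edgeR), with library size alone (0.18) and with GC and length offsets (0.32), and was 0.037 without control replicate 2. The 3 genes are close copies, so reads may have been split between them, and their single values are uncertain. *BST2* (tetherin), which holds budding virions at the cell surface, was lower, from 13389 and 14079 to 10832 and 10270 counts (log2 fold change -0.46, standard error 0.038, adjusted p = 6.7e-06, edgeR).

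The group of *IFI* genes, *XAF1* and *LGALS3BP* held 3 of the 8 genes called lower. *IFI44L* (chr1:78619902-78646145, plus strand) had 2183 and 2161 counts in the control and 704 and 740 in the sgUSP22 libraries, a 3.18-fold decrease (log2 fold change -1.67, standard error 0.08, adjusted p = 2.58e-07, edgeR). Its neighbour *IFI44*, 3651 bases away, was not lower, with 3923 and 3798 and then 4516 and 4547 counts (log2 fold change 0.15, adjusted p = 0.023, edgeR), and did not pass with DESeq2, with GC and length offsets, or without control replicate 2, sgUSP22 replicate 1 or sgUSP22 replicate 2. The ratio of *IFI44L* to *IFI44* counts was 0.556 and 0.569 in the control and 0.156 and 0.163 in the sgUSP22 libraries. *IFI6*, whose product protects against viral remodelling of the endoplasmic reticulum (chr1:27666064-27672212, minus strand), had 8996 and 9711 counts in the control and 4275 and 4084 in the sgUSP22 libraries, a 2.36-fold decrease (log2 fold change -1.24, standard error 0.043, adjusted p = 3.7e-08, edgeR). *IFI27*, which encodes a small mitochondrial membrane protein (chr14:94104836-94116695, plus strand), was of low abundance, with 423 and 417 counts in the control and 215 and 248 counts in the sgUSP22 libraries (log2 fold change -0.94, standard error 0.15, adjusted p = 0.000458, edgeR). *LGALS3BP*, which encodes a secreted glycoprotein, was lower but under 1.5-fold, from 29591 and 30684 to 24683 and 23859 counts (log2 fold change -0.39, standard error 0.032, adjusted p = 6.78e-06, edgeR), as was *IFI35*, from 1449 and 1548 to 1386 and 1160 counts (log2 fold change -0.31, adjusted p = 0.0169, edgeR). *IFI35* did not pass with no filter, with GC and length offsets (-0.12), without control replicate 2 (-0.28) or without sgUSP22 replicate 2 (-0.20). *XAF1*, which encodes a binding partner of the apoptosis inhibitor XIAP, had 63 and 64 counts in the control and 84 and 61 in the sgUSP22 libraries, groups that overlap (log2 fold change 0.11, and -0.14 without sgUSP22 replicate 1).

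The classical antiviral GTPase genes *MX1* and *MX2* were low in all libraries. *MX1* had 146 and 206 counts in the control and 155 and 155 in the sgUSP22 libraries (log2 fold change -0.26, adjusted p = 0.341, edgeR), and -0.47 and -0.0089 without control replicates 1 and 2. *MX2* had 99 and 146 counts in the control and 128 and 126 in the sgUSP22 libraries, and its sign depended on the scaling (log2 fold change -0.024, and 0.028 with library size alone). Neither passed the test, and the control libraries differed from each other by more than the sgUSP22 libraries did for both genes.

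Of the other antiviral effectors beside *RSAD2*, 2 were higher at the adjusted p without reaching 1.5-fold. *ISG20*, an RNA exonuclease gene, went from 1543 and 1512 to 2074 and 2128 counts (log2 fold change 0.38, standard error 0.069, adjusted p = 0.00112, edgeR). *SAMD9L*, a gene for a translation-blocking protein, went from 1349 and 1327 to 1726 and 2001 counts (log2 fold change 0.40, standard error 0.09, adjusted p = 0.00413, edgeR), and did not pass with GC and length offsets (0.16). Its neighbour and relative *SAMD9* had 4793 and 5041 and then 5338 and 5329 counts, with a log2 fold change of 0.039 that became -0.24 with GC and length offsets. *TRIM22*, a ubiquitin ligase gene, had under 50 counts in every library, with 42 and 32 counts in the control and 37 and 47 in the sgUSP22 libraries (log2 fold change 0.10, and -0.13 with GC and length offsets).

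In the module of ADP-ribosyltransferases and their partner, *DTX3L*, a ubiquitin ligase gene, was lower, from 5145 and 4907 to 3660 and 3881 counts (log2 fold change -0.49, standard error 0.055, adjusted p = 4.97e-05, edgeR). Its partner *PARP9* had 2141 and 2022 counts in the control and 1953 and 1979 in the sgUSP22 libraries and did not pass the test (log2 fold change -0.16, adjusted p = 0.0714, edgeR), but did with a mean of at least 50 counts, with GC and length offsets (-0.30) and without control replicate 2 (-0.22), and was -0.10 without control replicate 1. *PARP14* had 3885 and 3686 and then 3814 and 3934 counts, groups that overlap (log2 fold change -0.05, 0.0067 with library size alone, and -0.23 with an adjusted p of 0.00372 from edgeR with GC and length offsets).

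The levels per length changed their order in places. With the mean CPM divided by the length of the longest annotated transcript in kb, *ISG15* was first in both groups, at 984 and 1229 CPM per kb. *RSAD2* moved from place 35 of 42 in the control to place 14 in the sgUSP22 libraries, *OASL* from 6 to 3 and *GBP1* from 42 to 36. *IRF7* moved from place 26 to 34 and *IFI44L* from 31 to 37.

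The upstream part of the pathway was read from a list of 50 other genes, of which 30 were tested. In the list, 6 genes were called higher, 1 was called lower, 5 more were higher and 5 more lower at the adjusted p alone, and 13 did not pass. With the called genes included, 11 of the 30 were higher and 6 lower at the adjusted p. Over all tested genes, 8.88% were called higher and 7.25% lower. At the adjusted p, called genes included, 26.8% of all tested genes were higher and 25.8% lower. Interferon transcripts themselves were scarce: 14 of 21 ligand genes were at 0 in every library and the highest count of any ligand gene was 40. That count came from *IFNL1*, a type III interferon gene, with 18 and 13 counts in the control and 39 and 40 in the sgUSP22 libraries (log2 fold change 1.26, adjusted p = 0.053, edgeR). *IFNL1* was called higher with library size alone and with GC and length offsets. *IFNB1* had 4 and 0 counts in the control and 15 and 6 in the sgUSP22 libraries and was not tested.

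Of the receptor genes, *IFNAR1* was called higher, from 2206 and 2229 to 3759 and 3573 counts (log2 fold change 0.65, standard error 0.052, adjusted p = 5.94e-06, edgeR), and *IFNAR2*, which encodes the other chain of the type I receptor, was higher without reaching 1.5-fold, from 968 and 912 to 1287 and 1324 counts (log2 fold change 0.39, adjusted p = 0.00382, edgeR). Among the receptor kinases, *JAK2*, which serves the interferon gamma receptor, was called higher, from 930 and 881 to 1592 and 1811 counts (log2 fold change 0.83, standard error 0.096, adjusted p = 6.22e-05, edgeR). *JAK1* had 17043 and 17694 and then 17311 and 16834 counts (log2 fold change -0.10, adjusted p = 0.0259, edgeR) and *TYK2* had 4864 and 4800 and then 5279 and 5053 counts (log2 fold change 0.018, adjusted p = 0.769, edgeR).

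Sensors and adaptors held 3 of the genes called higher. *DHX58*, which encodes LGP2, a RIG-I-like receptor, had 465 and 431 counts in the control and 1041 and 1066 in the sgUSP22 libraries (log2 fold change 1.15, standard error 0.10, adjusted p = 1.18e-05, edgeR). *TRIM25*, a ubiquitin ligase gene of RIG-I activation, had 5773 and 5635 and then 9889 and 10125 counts (log2 fold change 0.73, standard error 0.042, adjusted p = 7.84e-07, edgeR). *TLR3*, the endosomal RNA receptor gene, was low, with 67 and 53 and then 121 and 128 counts (log2 fold change 0.97, standard error 0.27, adjusted p = 0.0114, edgeR). *TICAM1*, the gene of the adaptor of TLR3, was called lower, from 5028 and 5249 to 3208 and 3241 counts (log2 fold change -0.75, standard error 0.046, adjusted p = 1.03e-06, edgeR). *TBK1*, the kinase gene of interferon induction, was called higher, from 2325 and 2273 to 4038 and 3868 counts (log2 fold change 0.70, standard error 0.052, adjusted p = 3.61e-06, edgeR). Of these upstream calls, *IFNAR1*, *JAK2*, *TBK1* and *TICAM1* were not called with GC and length offsets. The same offsets gave *IFNL1* as called higher and *CGAS* as called lower. *TLR3* was not called with DESeq2, without control replicate 2 or without sgUSP22 replicate 2. Without control replicate 1, 3 genes of the list were called lower instead of 1, *CGAS* and *TRIM21* in addition, and without sgUSP22 replicate 2 there were 2, with *TRIM21* added.

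**Figure D5:**
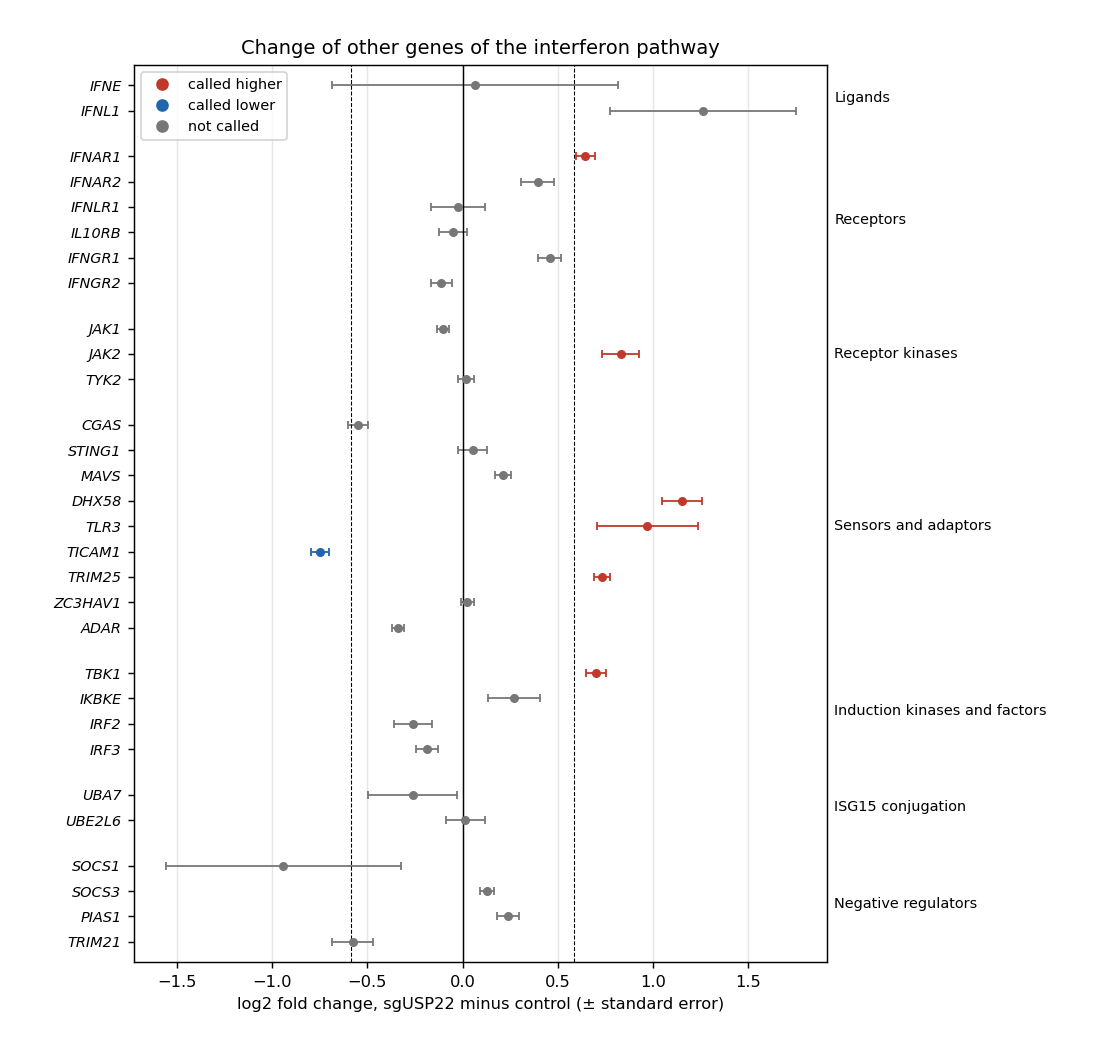
Log2 fold change in sgUSP22 against control libraries for the 30 tested genes among the 50 other interferon pathway genes, grouped by role, with bars of 1 standard error from edgeR, dashed lines at 1.5-fold and the same colours for calls. *IFNL1* and *DHX58* lie furthest to the right and *SOCS1*, which did not pass the test, furthest to the left.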

How the data were processed

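PolyA RNA from 2 control and 2 sgUSP22 libraries was analysed. Per the labels and the paper's methods, the authors used HISAT2 2.2.1 for alignment to hg38 and deposited whole-number gene counts made with StringTie 2.2.1, which derives counts from read coverage, without normalisation for library size. The annotation, strand setting and read length are not given in the sources used here. The authors' own comparison used DESeq2 1.34.0 and was not used. Columns were assigned by name, with 0 left over. Replicates differed by more than sampling noise (chi-square per gene 8.11 in control, 8.51 in sgUSP22), so none was a duplicate.

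Counts were compared in R 4.3.3 with edgeR 4.0.16 (TMM factors, filterByExpr by group at its minimum count of 10, then glmQLFit and glmQLFTest), fitted on the whole table, with Benjamini-Hochberg adjustment over 15150 genes. Calls required an adjusted p-value below 0.05 and 1.5-fold, the study's thresholds. CPM values use TMM-scaled library sizes. The standard error of a log2 fold change was taken as its size over the root of its F statistic. With 2 libraries per group no exact permutation test can fall below 0.05, so the fit across genes was used. On simulated counts for this comparison, edgeR recovered 89% of 2-fold and 97% of 3-fold changes with 12 false calls among 14997 genes. The changed genes had a mean of at least 50 counts and were far fewer than those that passed here. Their spread was taken from these libraries. These figures therefore do not cover sparsely counted genes such as *GBP1* or changes near 1.5-fold.

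Positions, lengths and GC content came from GENCODE v44 (26193 of 28278 symbols matched, 430 by an older symbol). Alternatives were DESeq2 1.42.0 (independent filtering at 0.1), scaling by RLE factors or by library size alone, a filter at a mean of 50 counts or none, a block for the replicate number, no fold threshold, a test against 1.5-fold, GC and length offsets (lowess, span 0.3, over the 96.4% of tested genes with values) and leaving out each library. The members, the pathway and marker lists and the 40 Mb boundary were chosen with earlier results of these data known. Beside the 50 genes of the pathway list 2 more, and 1 more immune cell marker, are not reported here. Every member is named; those called, the *IFIT* genes and the 3 most abundant get full statistics, as do some others. Of the pathway list, genes called and *JAK1*, *TYK2*, *IFNAR1* and *IFNAR2* are named; *IFNL1*, *IFNB1*, *CGAS*, *TRIM21*, *SOCS1*, *UBA7* and *UBE2L6* were added after their values were seen, as was *FAS*.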

Additional observations from a re-analysis of the deposited data

How the results depend on the processing

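The calls of *RSAD2*, *IRF7*, *IRF9*, *IFI6*, *IFI44L*, *OAS1*, *OAS3* and *IFITM1* held under every alternative run. So did that of *GBP1*, which passed the main filter only through the sgUSP22 libraries, so that its call adds no support. Without the fold change threshold, 13 members were higher and 20 lower, 11 and 6 of the other pathway genes, and 4057 and 3904 of all genes. Tested against 1.5-fold, 3 members remained higher (*DDX58* was lost) and 7 lower (*IFI27* was lost), 2 other pathway genes were higher, 578 and 428 of all genes were called, and *USP22* at 0.22 did not pass (adjusted p = 1, edgeR). GC and length offsets left 2 members higher and gave 10 lower, with *EIF2AK2* and *DTX3L* added. Leaving out 1 library gave 3 to 4 members higher and 8 to 10 lower, and 5 to 6 other pathway genes higher and 1 to 3 lower.

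Signs turned for members that did not pass the test: *MX2* (0.028 with library size alone, -0.26 to 0.26 without 1 library), *PARP14* (0.0067 with library size alone, -0.099 to 0.0091 without 1 library), *TRIM22* (-0.13 with GC and length offsets, -0.094 to 0.33 without 1 library), *XAF1* (-0.14 to 0.31 without 1 library) and *SAMD9* (-0.24 with GC and length offsets, adjusted p = 0.000857, edgeR). The cause was not tested. The replicate numbers did not pair the libraries (correlation of deviations 0.042), and with the replicate block 4 members were higher and 8 lower, and *IFITM2* passed the adjusted p (0.0477, edgeR). Depth limits *GBP1*, *MX1*, *MX2*, *TRIM22* and *XAF1* most.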
